A study of Mus musculus with 4 samples.

Results

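In the inflamed mouse colon, 8 genes that guide lymphocytes into the mucosa were followed: the chemokine genes Ccl25 and Ccl28, their receptor genes Ccr9 and Ccr10, the addressin gene Madcam1, and the integrin genes Itga4, Itgb7 and Itgae. The members were named as a gene family, not by their values, but earlier results of these data were known when they were chosen. The same holds for the gene lists below. A probe was taken for a member where the RefSeq accession of its target belonged to that gene. Probes were found for 7 of the 8 genes, out of 20832 genes named on the array; no probe could be tied to Itgae through the RefSeq table used here, which does not list every accession of the array, so Itgae was not analysed here. Whole colons came from wild-type (WT) and STAP-2-/- C57BL/6J mice aged 14 weeks, all of which had 1.75% dextran sulfate sodium (DSS) in the drinking water. STAP-2 is an adaptor protein of cytokine signalling, and DSS damages the lining of the colon so that inflammation follows. The length of the DSS course is 7 days in the sample description but 3 days in the treatment protocol, and no colon without DSS is among the samples. RNA pooled from 3 mice went on each 1-colour Agilent array, with 2 arrays per genotype, numbered 1 and 2 in the titles. The series text speaks of 3 mice per strain and the labels of 3 per pool, so whether the pools of a genotype held different mice cannot be read from them. The p-values below measure only the spread between these samples.

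Homing to the gut wall depends on an address on the vessel and a matching set of receptors on the lymphocyte. MAdCAM-1 on mucosal venules is bound by the integrin dimer of the Itga4 and Itgb7 products, while chemokines from the epithelium draw cells that carry the fitting receptor. CCL25, typical of the small intestine and thymus, is the ligand of CCR9, and CCL28, made by colonic and other mucosal epithelia, is the ligand of CCR10, which antibody-secreting cells carry. The Itgae product, CD103, pairs with the Itgb7 product and holds T cells and dendritic cells to E-cadherin. Retinoic acid made by intestinal dendritic cells induces CCR9 and the Itga4-Itgb7 dimer on lymphocytes.

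Values are log2 of the processed signal of an array relative to the 75th percentile of its probes, so a step of 1 is a 2-fold difference. Between 68.4% and 70.5% of probes were well above background on an array, and the number of arrays limits the precision. Stap2, on chromosome 17, checked the labels: WT colons had levels of 2.92 and 2.98, while neither STAP-2-/- colon had a signal well above background. WT was at least 721.9-fold higher (limma adjusted p = 0.314), measured against the lowest signal that counted as well above background in each STAP-2-/- colon. All 10 epithelial and all 6 smooth muscle markers were well above background on every array, but these do not tell colon from other gut. All 6 colon markers were well above background on every array too, as were 5 of 8 small intestine markers. Both arrays numbered 1 held slide positions 1 and 2, and both numbered 2 held positions 3 and 4 of the same slide. Arrays differed more by number than by genotype. Over 15145 genes the SD of the log2 difference was 0.398 for WT 2 against WT 1 and 0.610 for STAP-2-/- 2 against STAP-2-/- 1, beside 0.317 and 0.359 between genotypes at the same number.

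All 7 measured members were well above background on all 4 arrays, so none entered the test through 1 group alone. By limma with Benjamini-Hochberg adjustment at 0.05, no member was called, either for genotype (0 of 7, against 0.0% of 15561 genes tested) or for number (0 of 7, against 0.0256% of 15648 genes tested). The adjusted p for genotype was 0.999996 for each of the 7. At an unadjusted p under 0.05 the counts were 0 members for genotype (2.09% of all genes) and 1 for number (26.0% of all genes). The genotypes did not overlap for 2 members, Ccr9 and Ccr10, both higher in STAP-2-/- colons, where 24.8% of all genes did not overlap. The numbers did not overlap for 5 members, 4 higher and 1 lower in number 2, where 63.0% of all genes did not overlap. In number 2, 26.9% of all genes were higher and 36.1% lower with no overlap; with median scaling these were 5834 genes higher and 4012 lower, and no member turned direction. Taken without direction, the members' counts lie near the shares of the whole array. With direction, 4 of 7 were higher and 1 of 7 lower in number 2, beside 26.9% and 36.1% of all genes. The direction over all genes depended on the scaling, and the members were not tested against it.

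**Figure D1:**
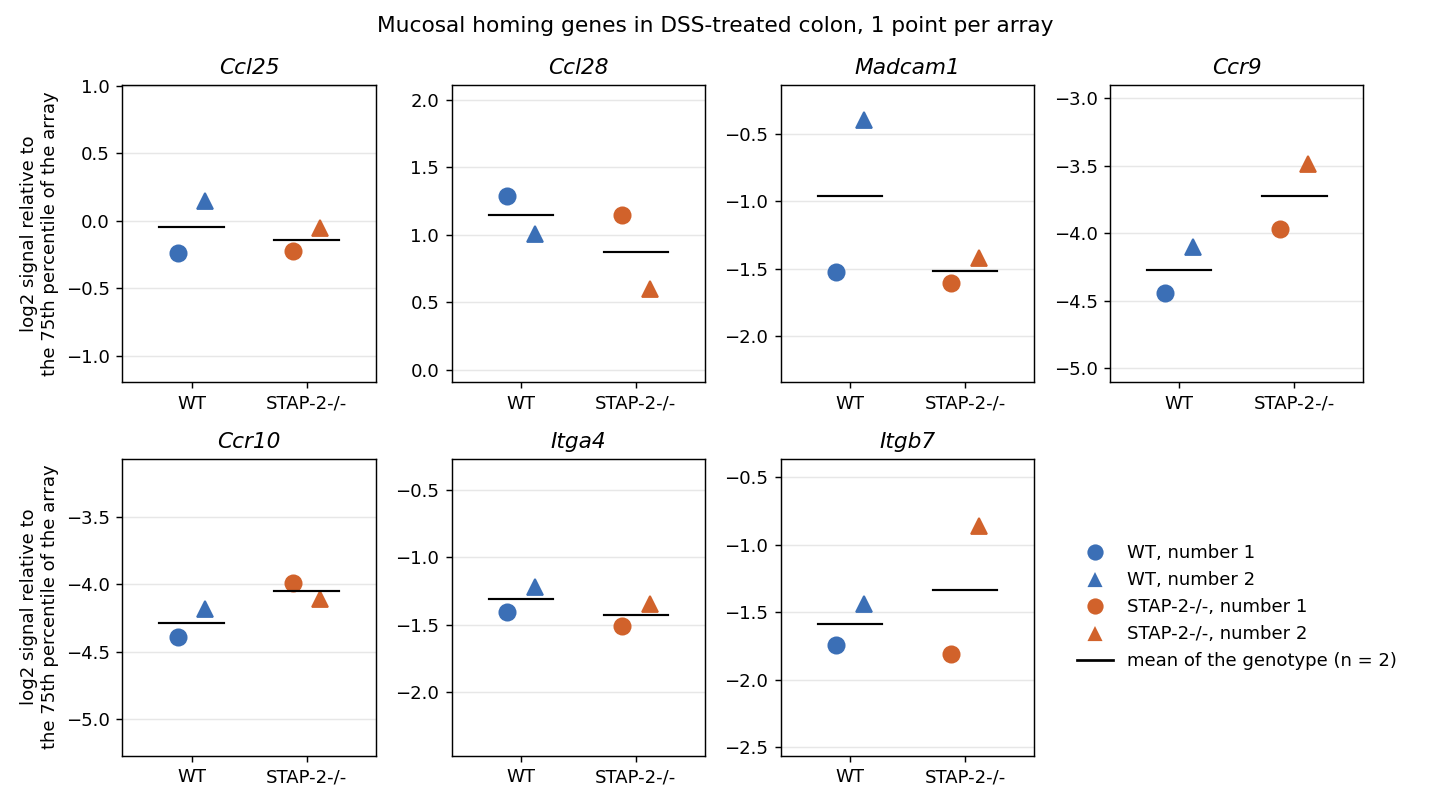
Level of each measured homing gene on each array, as log2 signal relative to the array's 75th percentile; circles are arrays numbered 1, triangles those numbered 2, blue WT, orange STAP-2-/-, and the bar is the mean of the 2 arrays of a genotype. Each panel spans the same range around its own centre; Madcam1 stands high on WT 2 alone and Itgb7 on STAP-2-/- 2 alone, while Ccr9 is higher on both STAP-2-/- arrays.

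Of the epithelial chemokines, Ccl25 varied little between arrays. Its level was -0.24 on WT 1, 0.15 on WT 2, -0.22 on STAP-2-/- 1 and -0.05 on STAP-2-/- 2. The arrays numbered 1 lay at nearly the same level, the arrays numbered 2 lay above them, and the genotypes overlapped. STAP-2-/- minus WT was -0.09 (SE 0.20, 95% interval -0.64 to 0.46), and number 2 minus number 1 was 0.28 (SE 0.12, adjusted p = 0.227). The widest gap, between WT 1 and WT 2, was 1.31-fold. A dimmer probe for a non-coding Ccl25 transcript went the other way between the numbers, by -0.40, with its lowest level, -6.26, on WT 2.

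Ccl28, the chemokine of the colonic epithelium, was lowest on STAP-2-/- 2. Its level was 1.29 on WT 1, 1.01 on WT 2, 1.15 on STAP-2-/- 1 and 0.60 on STAP-2-/- 2. Within each number the STAP-2-/- array was below the WT array, and within each genotype number 2 was below number 1. Across all 4 arrays, however, STAP-2-/- 1 lay above WT 2, so the genotypes overlapped and the numbers did not. The genotype difference was -0.27 (SE 0.25, interval -0.98 to 0.43) and became -0.0019 without STAP-2-/- 2. Number 2 minus number 1 was -0.41 (SE 0.18, adjusted p = 0.225), and Ccl28 was the 1 member lower in number 2.

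Madcam1, the vascular address of the mucosa, was set apart by a single array. Its level was -1.53 on WT 1, -0.40 on WT 2, -1.61 on STAP-2-/- 1 and -1.42 on STAP-2-/- 2. WT 2 was 2.19-fold above WT 1, and the other 3 arrays lay within 0.19 of each other. The genotype difference of -0.55 (SE 0.43, interval -1.75 to 0.65) rested on that array: without WT 2 it was 0.013, and without WT 1 it was -1.12. Number 2 minus number 1 was 0.66 (SE 0.36, adjusted p = 0.306), and 0.15 without WT 2. A dimmer probe for the same transcript was also highest on WT 2, at -5.48 against -5.89, -6.03 and -6.12 on WT 1, STAP-2-/- 1 and STAP-2-/- 2. That probe lay near the floor. The lowest signal that counted as well above background was -6.61 on WT 2 and -6.19, -6.39 and -6.70 on WT 1, STAP-2-/- 1 and STAP-2-/- 2.

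The upstream sequence of Madcam1 and that of the downstream start of Ccl25 are shown because they were the member windows that held any of the 5 motifs searched. The windows are the 250 bases before a transcript start, credited to RefSeq on GRCm38.p6, with 7 windows matched for 6 of the 8 genes. Motifs were searched on both strands: a kappa-B form of NF-kB sites (GGGAAA, any 2 bases, then CC, in 1.63% of 32851 windows), the STAT palindrome TTCNNNGAA (7.02%), the nuclear receptor half-site AGGTCA (14.02%), the CDX form CATAAA (10.8%) and an interferon response form (GAAA, any 2 bases, then GAAA, in 2.98%). Capitals mark the matches, which do not overlap each other. The Madcam1 window, chr10:79664309-79664558 on the plus strand, held the kappa-B form 2 times, starting 84 and 71 bases before the transcript start. The Ccl25 window, chr8:4349338-4349587 on the plus strand, held the CDX form 192 and the half-site 42 bases before the start. No member window held the STAT palindrome, which says only that these letters are not in these windows.
Madcam1: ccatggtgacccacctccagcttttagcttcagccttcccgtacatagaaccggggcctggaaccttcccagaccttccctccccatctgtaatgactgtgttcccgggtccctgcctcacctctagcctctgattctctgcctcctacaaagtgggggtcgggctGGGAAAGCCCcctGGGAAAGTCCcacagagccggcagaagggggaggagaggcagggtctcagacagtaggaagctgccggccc
Ccl25: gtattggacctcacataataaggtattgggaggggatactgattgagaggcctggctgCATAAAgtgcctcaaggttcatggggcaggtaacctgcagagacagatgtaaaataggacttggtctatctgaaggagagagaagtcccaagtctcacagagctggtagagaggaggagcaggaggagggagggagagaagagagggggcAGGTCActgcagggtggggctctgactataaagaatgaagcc

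Ccr9, the receptor for CCL25, was the member with the largest upward genotype difference. Its level was -4.44 on WT 1, -4.10 on WT 2, -3.97 on STAP-2-/- 1 and -3.48 on STAP-2-/- 2. The WT mean was -4.27 ± 0.24 (SD, n = 2) and the STAP-2-/- mean -3.73 ± 0.34 (SD, n = 2). Both STAP-2-/- arrays lay above both WT arrays, with a gap between WT 2 and STAP-2-/- 1 that is smaller than the spread within either genotype. STAP-2-/- colons were 1.46-fold higher, a log2 difference of 0.55 (SE 0.25, interval -0.14 to 1.24); 4.42% of all genes had a difference at least as large in size. The difference was 0.48 within number 1 and 0.62 within number 2, so it had the same sign in both. With normexp background correction it was 0.27, and with 1 array left out it ran from 0.31 (without STAP-2-/- 2) to 0.79 (without STAP-2-/- 1). The probe was dim: on WT 1 it lay 1.75 log2 units above the lowest signal that counted as well above background.

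Ccr10, the receptor for CCL28, was higher in STAP-2-/- colons by a smaller step. Its level was -4.39 on WT 1, -4.19 on WT 2, -3.99 on STAP-2-/- 1 and -4.11 on STAP-2-/- 2. WT 2 and STAP-2-/- 2 lay only 0.07 apart, so the order of the genotypes rests on a gap smaller than the spread within either. The difference was 0.24 (SE 0.15, interval -0.19 to 0.66), and with normexp background correction it was 0.09 and the genotypes overlapped. Between the numbers Ccr10 differed by 0.04 (SE 0.17, adjusted p = 0.895), the smallest such difference among the members, which became -0.16 without WT 1. It was the 1 member for which number 2 was higher in WT and lower in STAP-2-/- colons.

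Itga4, the alpha chain of the homing integrin, was the steadiest member. Its level was -1.40 on WT 1, -1.22 on WT 2, -1.51 on STAP-2-/- 1 and -1.34 on STAP-2-/- 2, a range of 1.22-fold. The genotypes overlapped, with a difference of -0.12 (SE 0.15, interval -0.54 to 0.31). That difference was -0.11 within number 1 and -0.12 within number 2. The numbers differed by 0.17 (SE 0.11, adjusted p = 0.378), by nearly the same amount in WT (0.18) and STAP-2-/- colons (0.17). The other Itga4 probe was not well above background on any array.

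Itgb7, the beta chain shared by the homing integrin and CD103, did not follow Itga4. Its level was -1.74 on WT 1, -1.44 on WT 2, -1.81 on STAP-2-/- 1 and -0.86 on STAP-2-/- 2. STAP-2-/- 2 was 1.94-fold above STAP-2-/- 1, while WT 2 was 1.23-fold above WT 1. The numbers did not overlap: number 2 minus number 1 was 0.63 (SE 0.22, interval 0.04 to 1.22), with an unadjusted p of 0.0410 and an adjusted p of 0.180 by limma. It was the member with the lowest adjusted p for number. The genotypes overlapped, with a difference of 0.26 (SE 0.38, interval -0.81 to 1.32), which turned to -0.22 when STAP-2-/- 2 was left out and grew to 0.73 when STAP-2-/- 1 was.

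**Figure D2:**
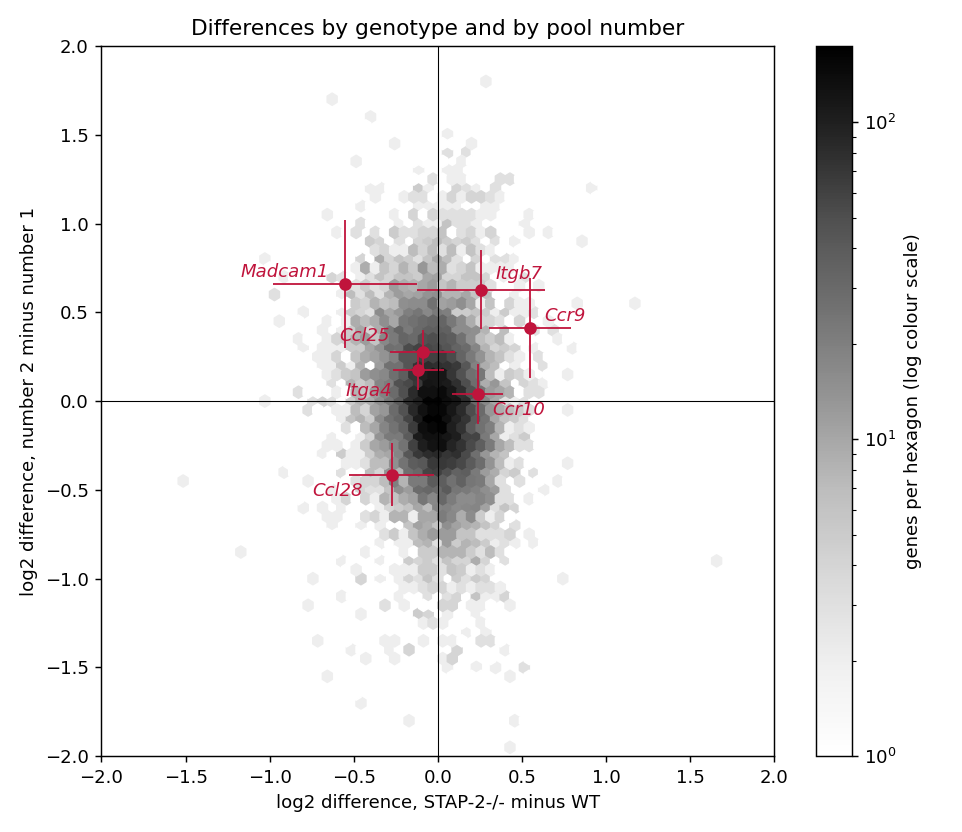
Log2 difference by genotype (x axis) against log2 difference by number (y axis) for the 7 measured homing genes, in red with standard errors from limma, over all genes tested in both comparisons, drawn as grey hexagons shaded by the number of genes on a log scale. The grey cloud is taller than it is wide, and Madcam1, Itgb7 and Ccr9 lie toward its edge while Itga4 and Ccl25 lie near its middle.

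Over the 7 members the median log2 difference by genotype was -0.09, beside -0.01 over all genes tested, with 3 members higher and 4 lower. By number it was 0.28, beside -0.04 over all genes, with 6 members higher and 1 lower. Over all genes 7075 were higher and 8573 lower by number, and 8912 and 6736 with median scaling. The median size of the difference, sign left out, was 0.26 by genotype and 0.41 by number among members, and 0.12 and 0.23 among all genes. No member was 2-fold apart by genotype (0.79% of all genes were, with no overlap) or by number (5.12%). In 6 of the 7 members the step from number 1 to number 2 had the same sign in WT and STAP-2-/- colons.

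The genotype difference was also read within each number, where there is 1 array per genotype and so no test. Ccl28, Madcam1 and Itga4 were lower in STAP-2-/- colons at both numbers, and Ccr9 and Ccr10 higher at both. Madcam1 differed by -0.08 in number 1 and -1.02 in number 2, and Ccr10 by 0.40 and 0.07. Itgb7 differed by -0.07 in number 1 and 0.58 in number 2, and Ccl25 by 0.02 and -0.20.

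**Figure D3:**
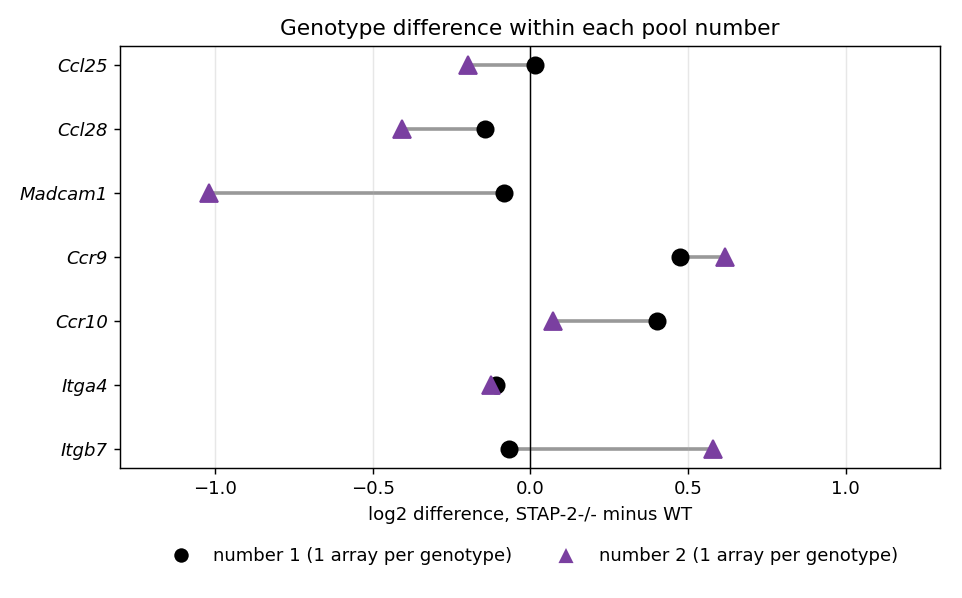
STAP-2-/- minus WT on the log2 scale (x axis) for each homing gene, within number 1 (black circles) and within number 2 (purple triangles), each from 1 array per genotype. The circles lie between -0.14 and 0.48; the triangles spread from -1.02 for Madcam1 to 0.62 for Ccr9.

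Markers of the cells that carry or make these molecules differed between the same arrays. In whole colon, fewer cells of a type and less RNA per cell cannot be told apart. Of 10 T cell markers, 8 were well above background on all arrays and 1, Cd247, on none. Their mean level around the gene mean was 0.89 on STAP-2-/- 2, against -0.51, -0.15 and -0.22 on WT 1, WT 2 and STAP-2-/- 1, and 6 of the 8 were highest on STAP-2-/- 2. The summed level of the list was 2.67 and 2.95 in WT and 3.05 and 4.71 in STAP-2-/- colons. Itgb7 and Ccr9 were also highest on STAP-2-/- 2, and Itga4 was highest on WT 2, at -1.22. The part of T cells in these results was not tested.

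Madcam1 stood high on the array on which lymphoid markers also stood high. All 6 lymphoid follicle markers were highest on WT 2, where their mean level around the gene mean was 0.85, against -0.18, 0.05 and -0.73 on WT 1, STAP-2-/- 1 and STAP-2-/- 2. Their summed level was 1.45 and 2.77 in WT and 1.68 and 1.55 in STAP-2-/- colons, and none of the 6 was below background on every array. Glycam1, a mucin-like gene of the high endothelial venules of lymph nodes, was at -1.55 on WT 2 and -5.17 on STAP-2-/- 1 and not well above background on WT 1 or STAP-2-/- 2; it was singled out after its values were seen. Of 7 B cell markers 5 were well above background on all arrays and Blk on none; their mean was 0.66 on WT 2 and 0.44 on STAP-2-/- 1, against -0.21 on WT 1 and -0.89 on STAP-2-/- 2, with summed levels of 0.788 and 1.62 in WT and 1.21 and 0.611 in STAP-2-/- colons. The mean of the 8 general endothelial markers, each around its gene mean, lay between -0.08 and 0.07 on every array, with a summed level of 7.20 and 6.98 in WT and 6.41 and 7.26 in STAP-2-/- colons. Single endothelial markers went both ways: Plvap, a vessel diaphragm protein, was at 1.36, 1.51, 1.02 and 1.77 and Kdr, a VEGF receptor, at 0.86, 0.58, 0.92 and 0.38 on WT 1, WT 2, STAP-2-/- 1 and STAP-2-/- 2. The part of lymphoid tissue in the Madcam1 level was not tested.

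General epithelial markers varied in both directions between arrays, and their list mean varied little. The mean of the 10, each around its gene mean, lay between -0.05 and 0.08 on every array, with summed levels of 739.1 and 644.5 in WT and 730.1 and 658.04 in STAP-2-/- colons. By number 7 of the 10 did not overlap (63.0% of all genes), with Krt8 differing by -0.57 and Epcam by 0.50. The 6 colon markers averaged 0.37 (WT 1), -0.06 (WT 2), 0.53 (STAP-2-/- 1) and -0.84 (STAP-2-/- 2), and all 6 were well above background throughout. Their summed level was 264.6 and 228.0 in WT and 320.9 and 213.9 in STAP-2-/- colons. Among them Hoxb13, a homeobox gene of the hindmost gut, was at 4.91, 3.74, 5.63 and 1.63 on WT 1, WT 2, STAP-2-/- 1 and STAP-2-/- 2. Ccl28 was lowest on that last array too, and the part of colon region in its level was not tested. The small intestine markers, 5 of 8 well above background on every array and none below it on all, summed to 3.42 and 3.57 in WT and 4.03 and 7.47 in STAP-2-/- colons. The mean of those 5 around the gene mean was -0.24 and -0.27 in WT and 0.15 and 0.36 in STAP-2-/- colons, and 3 of the 5 were highest on STAP-2-/- 2. Fabp6, the ileal bile acid-binding protein, was the brightest there at 2.06, while Rbp2 was at -2.19 on STAP-2-/- 1 and -3.65 on STAP-2-/- 2. Ccl25, also typical of small intestine, lay between its WT levels on STAP-2-/- 2. The part of small intestine in the Ccl25 level was not tested.

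**Figure D4:**
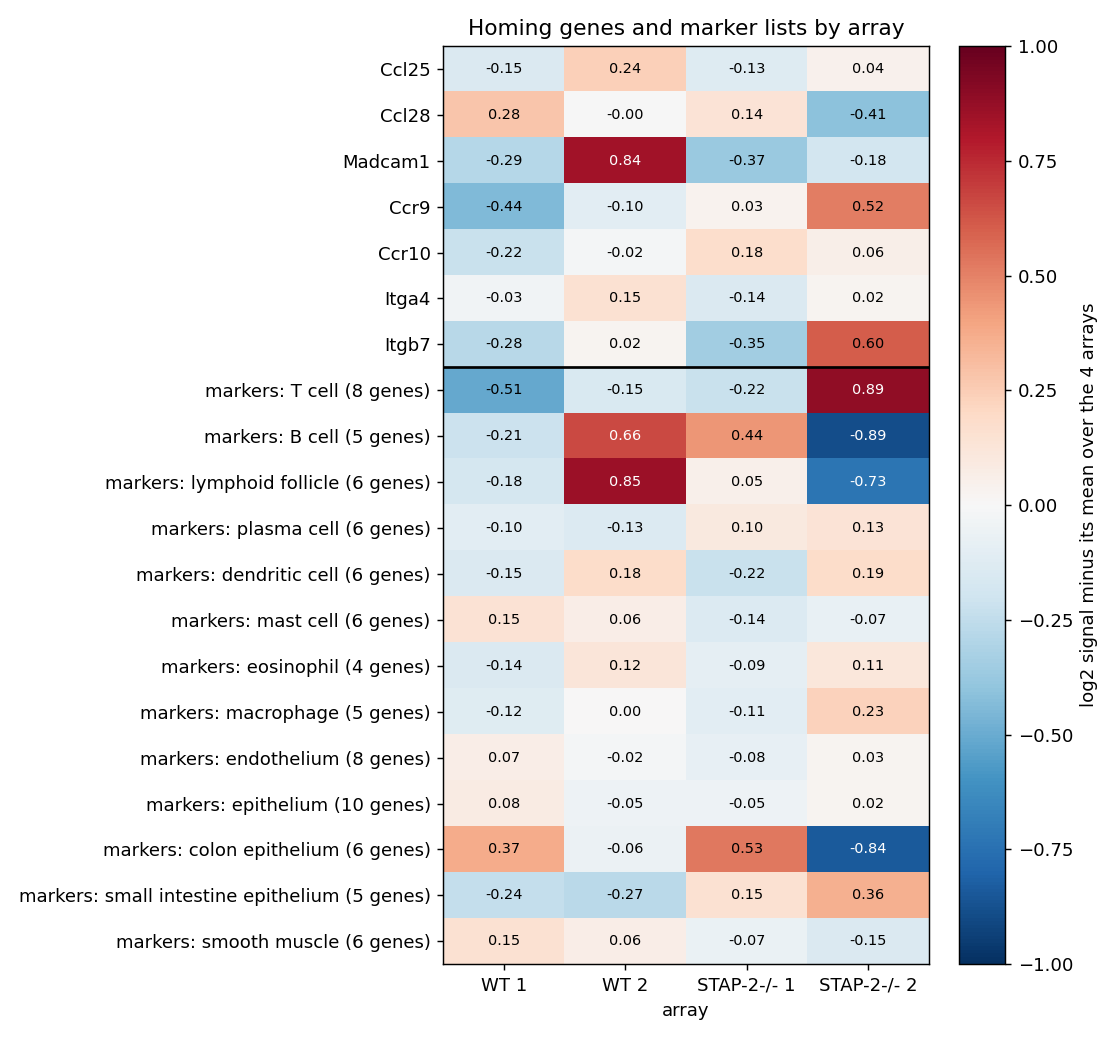
Heat map of the log2 level minus the mean over the 4 arrays, for the 7 homing genes (above the line) and for the mean of each marker list (below it), with the number of list genes well above background on all arrays; columns are arrays and each cell prints its value. Itgb7 and the T cell list (0.89) are highest on STAP-2-/- 2, and Madcam1 and the lymphoid follicle list (0.85) on WT 2.

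Markers of other cells that carry these molecules were read as well. Plasma cell markers, all 6 well above background, were higher in STAP-2-/- than in WT colons by a median of 0.17, with 4 of the 6 not overlapping (24.8% of all genes), 1 at an unadjusted p under 0.05 and 0 past the adjusted threshold by limma. Their summed level was 30.6 and 30.3 in WT and 31.4 and 39.0 in STAP-2-/- colons. Jchain was the brightest of them, at 4.73 on STAP-2-/- 1 and 5.08 on STAP-2-/- 2. Their mean level around the gene mean was -0.10 and -0.13 in WT and 0.10 and 0.13 in STAP-2-/- colons, with 3 highest on each STAP-2-/- array. Ccr10, which such cells carry, was higher by 0.24, at -3.99 on STAP-2-/- 1 and -4.11 on STAP-2-/- 2. The part of plasma cells in the Ccr10 level was not tested. Dendritic cell markers had a mean of 0.18 on WT 2, 0.19 on STAP-2-/- 2, -0.15 on WT 1 and -0.22 on STAP-2-/- 1, with Xcr1 below background on every array. By number all 6 tested dendritic cell markers did not overlap (63.0% of all genes), 4 had an unadjusted p under 0.05 (26.0% of all genes) and 0 passed the adjusted threshold. The mast cell and eosinophil lists, of cells that carry the Itgb7 product, had means around the gene mean that lay between -0.14 and 0.15 on every array, with Fcer1a and Epx below background throughout. Within the mast cell list 4 of the 6 tested genes were higher and 2 lower in number 2, with a median of 0.12. One of the lower genes, the tryptase gene Tpsb2, differed by -1.15 between the numbers (SE 0.13, limma adjusted p = 0.0720).

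Of 44 other genes of the homing pathway, 41 were tested and 0 passed for genotype, with 16 higher and 25 lower in STAP-2-/- colons and 8 not overlapping (24.8% of all genes). Their median difference was -0.03, and 0 had an unadjusted p under 0.05. By number 0 of 41 passed as well, with 30 higher and 11 lower in number 2, a median of 0.25, and 16 at an unadjusted p under 0.05 (26.0% of all genes). Like the members, the wider list was mostly higher in number 2. Over all genes 7075 of 15648 were higher in number 2, and 8912 with median scaling, so the direction over all genes depended on the scaling.

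Among other chemoattractants and receptors 5 of 7 were tested, 2 higher and 3 lower in STAP-2-/- colons. Ccr6, the CCL20 receptor, differed by -0.48 and Ackr4, a scavenger of CCL25, by -0.16. Ccr3, the other receptor for CCL28, differed by 0.53 between the numbers and Ccl27a, the other ligand gene of CCR10, by -0.41. Of the integrin partners and ligands 2 of 7 were higher in STAP-2-/- colons, Itgal by 0.29 and Itgb2 by 0.31. Between the numbers Itgb2, the beta chain of leukocyte integrins, differed by 0.83 (SE 0.23, adjusted p = 0.142) and Vcam1, the other vascular ligand of Itga4 integrins, by 0.48 (SE 0.11, adjusted p = 0.124). Icam2, an endothelial ligand of leukocyte integrins, differed by -0.19 by genotype.

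Genes of addressin synthesis and control were 3 higher and 5 lower of 8 tested. The sulfotransferase Chst4 differed by -0.20 by genotype, and the sulfotransferase Chst2 by 0.76 and the glycosyltransferase Gcnt1 by -0.55 between the numbers (adjusted p = 0.103 and 0.118). In the retinoic acid group, 3 of 7 were higher and 4 lower in STAP-2-/- colons. Aldh1a1, which makes retinoic acid, differed by 0.42 and the receptor gene Rxra by 0.32. Aldh1a3, another such enzyme, differed by 0.60 between the numbers. Cyp26b1, which degrades retinoic acid, differed by 1.24 between the numbers (SE 0.16, adjusted p = 0.0750), the lowest adjusted p among the 41 pathway genes.

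The TGF-beta and tissue residence group had 4 higher and 4 lower of 8 by genotype. Cd69, a mark of tissue-resident and activated lymphocytes, differed by 0.53 and Tgfbr2 by -0.15. Between the numbers Tgfb1, which induces Itgae on T cells, differed by 0.52 (SE 0.10, adjusted p = 0.103) and Runx3 by -0.44. In the integrin activation group 2 of 6 were higher in STAP-2-/- colons. Fermt3, the kindlin of blood cells, differed by 0.30 and Rasgrp2 by -0.30, and between the numbers Apbb1ip, which links RAP1 to talin, differed by 0.66 and Rap1a by 0.36.

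The genes whose pattern lay nearest to a member were found by the root mean square difference of mean-centred log2 values over the 4 arrays, among 15550 genes. Madcam1 had 1 gene within 0.05, the prostaglandin synthase gene Ptgs2 (0.044), followed by the collagen gene Col1a1 (0.072). Ptgs2 was at -2.73, -1.70, -2.84 and -2.62 on WT 1, WT 2, STAP-2-/- 1 and STAP-2-/- 2. Itgb7 had 13 genes within 0.05, led by the T cell kinase gene Lck (0.016), itself among the T cell markers above, and Rgs2 (0.022). Lck was at -0.64, -0.29, -0.69 and 0.28 in that order, and thus stood high on STAP-2-/- 2 alone. Ccr9 had 2 genes within 0.05, Slc16a10 (0.038) and Mro (0.043). Ccr10 had 24 such genes, with Dennd2c and Rcbtb2 nearest, Ccl28 had 44, with Pdgfrl and Eif2s2, Ccl25 had 59, with Zfp932 and Zfp518b, and Itga4 had 333, with Tbccd1 and Arl6ip5. With 4 arrays, flat patterns such as that of Itga4 have many near neighbours. Among the members themselves Ccl25 and Itga4 were nearest (0.074) and Ccl28 and Itgb7 farthest apart (0.628), while the integrin partners Itga4 and Itgb7 differed by 0.338 and Ccr9 and Itgb7 by 0.221.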

How the data were processed

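The authors' deposited scanner files hold the signal intensity per spot from Agilent Feature Extraction 10.7.1.1, per the submitters' processing notes, background-subtracted and detrended within an array, with flags for background and outliers. A value table that the authors deposited gives a ratio, the processed signal over 1 constant per array, within 1% for at least 99.97% of values of at least 0.5; its column medians are 0.090, 0.087, 0.091 and 0.084, and it served as an alternative only.

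Values are log2 of the processed signal minus the array's 75th percentile. Control spots were dropped, outlier spots set missing and spots averaged. Probes were named through RefSeq accessions (GRCm38.p6), 27427 of 39429; of several probes for a gene, the brightest on average stood for it. A gene entered a test if well above background on both arrays of a compared group, with limma 3.58.1 in R 4.3.3, Benjamini-Hochberg adjustment at 0.05 over all genes and no covariate. On 20 simulated sets of 15551 genes, with 200 changed genes and independent noise, 52.6% of 4-fold and 79.1% of 16-fold genotype changes passed. There were 5.4 false calls per set. These shares hold for that setting only, since in the data 0 genes passed for genotype and Stap2 itself had a limma adjusted p of 0.314. Members, lists and tests were chosen with earlier results of these data known. Named pathway genes are up to 2 per list with the smallest unadjusted p in each comparison; nearest patterns are the best 2 per member, clone names left out. Gpr15lg was matched as 2610528A11Rik. Alternatives were other scalings, normexp, filters, probe rules, blocks and left-out arrays. A gene that the naming rule picks is not reported here.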

Additional observations from a re-analysis of the deposited data

Results flagged for a closer look

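For 2 members the genotype difference had opposite signs at the numbers. STAP-2-/- minus WT in number 2 less that in number 1 was 0.65 for Itgb7 and -0.22 for Ccl25, on the log2 scale. With 1 array per genotype and number, the difference between numbers was not tested. The Itgb7 value is that of STAP-2-/- 2 standing high, and that of Ccl25 is smaller than the gap between the WT arrays (0.39).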

How the results depend on the processing

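Of 210 fits of a member under an alternative, 0 passed the adjusted threshold and 202 kept their direction. The lowest adjusted p by limma was 0.699 for genotype (Ccr9, replicate number as a block) and 0.0903 for number. The latter was Itga4 with its probes averaged, where the direction turned. That average draws in a probe not well above background on any array. The replicate number as a block left the genotype count at 0 and raised genes at an unadjusted p under 0.05 from 325 to 1040; deviations of arrays of equal number correlated by 0.631 across genes, a hint from the data, not the design, with 2 pairs. Normexp gave 1 gene past the threshold for genotype and left 1 member, Ccr9, with no overlap. For number 4 genes passed; the count was 0 with normexp, with no filter, with all 4 arrays above background and with genotype as a block, and 28 with an intensity trend and robust fit. With 1 array left out it ran from 0 (without WT 2) to 99 (without WT 1), with 43 without STAP-2-/- 1 and 41 without STAP-2-/- 2. Members with no overlap then numbered 4 to 5 for genotype and 5 to 7 for number, since the rule is looser with 3 arrays.

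Averaging a gene's probes turned Ccl25 to 0.036 and Itga4 to 0.17 by genotype and to -0.062 and -0.82 by number, where 3 members had no overlap; it draws in the dim second probes. Those probes alone, an alternative chosen after seeing the data, gave 0.16 (Ccl25) and 0.45 (Itga4) by genotype and -0.40 and -1.81 by number. With 1 array left out the genotype difference ran from -0.28 to 0.10 for Ccl25, -1.12 to 0.013 for Madcam1 and -0.22 to 0.73 for Itgb7, and the number difference of Ccr10 from -0.16 to 0.24. Dimness limits Ccr9 and Ccr10 most.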
